A study of Danio rerio with 2 samples.

Results

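The agouti family gene asip2b and the melanocortin receptor gene mc1r are described here in 2 preparations of pigment cells from adult zebrafish fins. They were taken as every probe set (the group of short oligonucleotides that reports a transcript) whose single platform gene symbol is asip2b or mc1r. Each gene has 1 such probe set, so the description covers 2 of the 8793 genes with a named probe set on this Affymetrix zebrafish array. The genes were picked with their signals and ratios on these same arrays known, so those values are a description and carry no test.

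The comparison named by the study is melanophores, the black cells that make melanin, against xanthophores, the yellow to orange cells that hold pteridines and carotenoids. Each preparation was hybridised to 1 array, and a difference between the 2 has no replicate check. Both preparations carry the same description apart from the cell type. The source was the caudal and anal fins of 1000 wild-type fish over 2 months old, bought from a pet shop, and the fins were digested overnight in 2.5 mg/ml trypsin and then with collagenase. No transgene, mutant or treatment differs between them. The labels contradict each other on the cell type: in both samples the title names one cell type while the source name and the cell type field name the other. The arrays are told apart here by title alone, and every ratio is the signal under the melanophore title over the signal under the xanthophore title. Each array carries RNA of many cells, so fewer cells of a type and less RNA per cell cannot be told apart.

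The melanocortin pathway controls colour in vertebrates. Peptides cut from pro-opiomelanocortin, such as α-MSH, activate Mc1r, a receptor that works through the stimulatory G protein and cyclic AMP. Active Mc1r favours dark melanin synthesis in melanocytes and the spreading of pigment granules in fish pigment cells. Agouti family proteins are secreted antagonists of melanocortin receptors. In zebrafish the gene asip2b has also been called agrp2, and it has been studied as a product of the pineal gland that acts on background adaptation.

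The signal of asip2b was high on one array and moderate on the other. Its probe set, Dr.20586.1.A1_at, had a MAS 5.0 signal of 3415.4 under the melanophore title, against 192.9 under the xanthophore title. The signal under the melanophore title ranked 334th from the top of 15502 transcript probe sets, brighter than 97.8% of them. The signal under the xanthophore title ranked 3639th, brighter than 76.5%, so asip2b was not dim there: its signal was 4.43 times that array's median of 43.5. The ratio was 17.7-fold, or 4.15 on the log2 scale. No floor entered this ratio, because both signals lay above the median of their array.

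Among the 2929 compared genes, those whose brighter signal reached the 75th percentile of its array, the ratio of asip2b was the 6th highest. In this set 3.72% of genes were 4-fold or more brighter under the melanophore title, and since asip2b was chosen on this ratio nothing is read from its place among them. The only error that can be set beside the ratio is technical. Compared probe sets of the same gene differed in log2 ratio with an SD of 0.38 (201 genes), a factor of 1.30. With 1 probe set, asip2b has no such check of its own. The array titled melanophores was brighter by a median log2 ratio of 0.38 over 18 spike-in control probe sets and of 0.46 over the compared genes. This offset did not hold for all probe sets. The median log2 ratio of 71 ribosomal protein genes was -0.50. Of probe sets whose brighter signal lay under its array's median, 52.8% were brighter under the xanthophore title. With the spike-ins set equal the ratio of asip2b was 13.6-fold.

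Genes that matched asip2b in brightness on one array seldom had so high a ratio. Of 145 other genes within 1.2-fold of its signal under the melanophore title, the signals under the xanthophore title ran from 83.8 to 8705.9 with a median of 2732.2. In 2 of these genes that signal was lower than that of asip2b: bco1, which cleaves carotenoids, and the cation/proton exchanger cax1. Seen from the other side, 558 genes lay within 1.2-fold of the signal of asip2b under the xanthophore title. Their signals under the melanophore title had a median of 253.9 and a maximum of 3057.4, and none reached that of asip2b. Since asip2b was chosen on its ratio, its place in both windows restates that ratio and nothing is read from it.

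**Figure D1:**
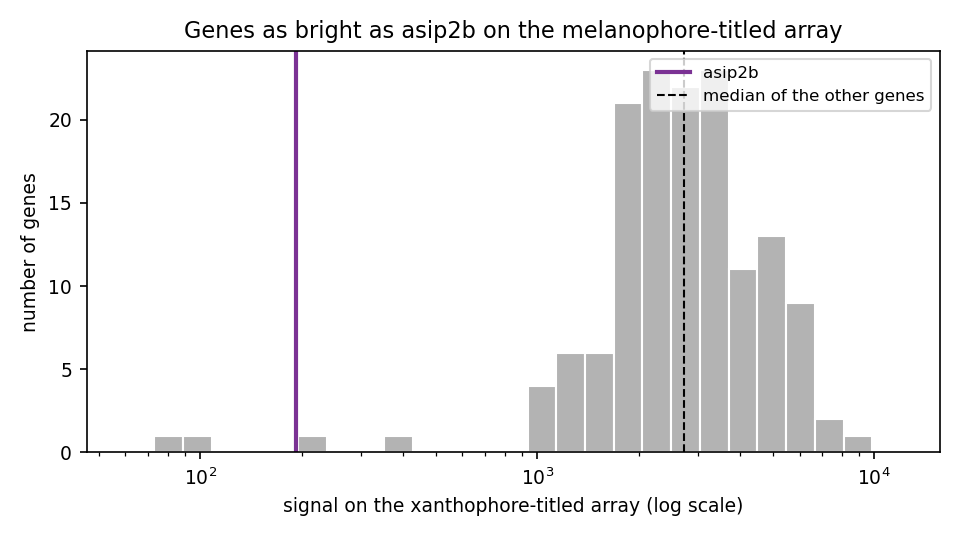
Histogram of the signal under the xanthophore title (log axis) of the 145 other genes whose signal under the melanophore title lay within 1.2-fold of that of asip2b; the height is the number of genes. The purple line is asip2b at 192.9 and the dashed line the median of the other genes, 2732.2. The line of asip2b, a gene chosen on its ratio, sits in the thin left tail.

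The 5 genes with the pair of signals most like that of asip2b were found as the smallest distance between log2 signals over the 2 arrays. The search left out clone names, symbols with a capital letter or hyphen, and every symbol that begins with letters such as zgc, si, wu or im. The last rule also drops a full gene name that happens to begin with si or im. Genes left out in this way may lie as close. The closest was atic, an enzyme of the last steps of purine synthesis, with 3057.4 under the melanophore title and 203.4 under the xanthophore title and a distance of 0.18. It was followed by syt11a, a synaptotagmin of vesicle traffic (2612.4 against 299.6), and rab10, a small GTPase of vesicle traffic (2355.8 against 340.4). The next were syne1b, of the nesprin family that links the nucleus to the cytoskeleton (1838.2 against 145.1), and bco1 (3076.2 against 95.2). Their ratios ran from 6.92-fold for rab10 to 32.3-fold for bco1. A likeness over 2 arrays rests on 2 points per gene.

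The signal of mc1r was dim on both arrays. Its probe set, Dr.25203.1.S1_at, had a signal of 33.4 under the melanophore title, against 36.9 under the xanthophore title. These signals were 0.71 and 0.85 times the medians of the arrays, 47.2 and 43.5. They ranked 8816th and 8338th of 15502. No fold was assigned (the unfloored log2 ratio was -0.14), because a gene whose brighter signal falls under the median of its array was not counted as measured. This holds for 37.4% of all named genes and for 45.8% of all transcript probe sets.

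No difference in mc1r is read at this brightness. Among probe sets that were dim in the same way, those of the same gene differed in their unfloored log2 ratio with an SD of 1.42 (525 genes), a factor of 2.68. The unfloored ratio of mc1r was small beside that SD. The SD pools all dim probe sets, many of them dimmer than mc1r, so it may overstate the error at the brightness of mc1r. The 1139 other probe sets within 1.2-fold of mc1r under the melanophore title had signals under the xanthophore title from 7.67 at the 5th percentile to 73.3 at the 95th, with a median of 30.6, and mc1r lay inside that range. That range also holds differences between genes, so it is not a measure of error alone. Detection calls were not used here, so a dim signal does not show that the transcript was absent.

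**Figure D2:**
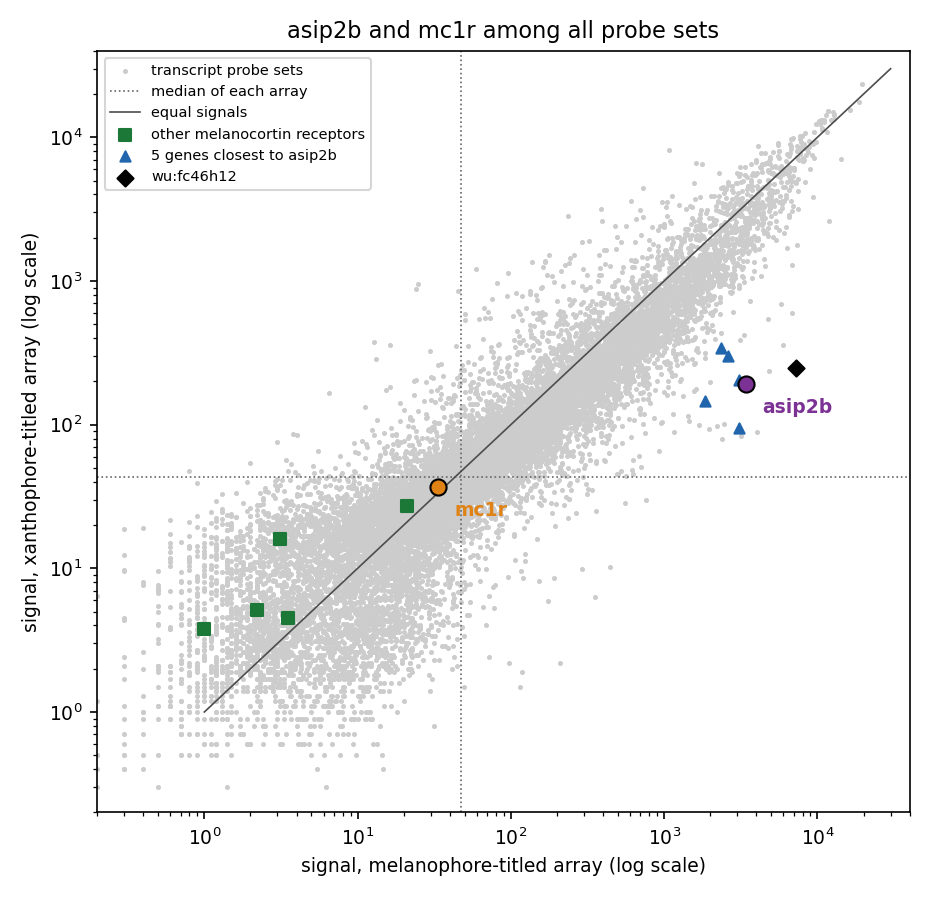
Signal of each transcript probe set on the arrays titled melanophores (horizontal) and xanthophores (vertical), both axes logarithmic, with the array medians dotted and equal signals as a solid line. The purple point, asip2b, lies far to the right of the line near the 5 closest genes of the likeness search (triangles). The points of mc1r (orange) and the other 5 melanocortin receptors (squares) lie under both medians.

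The other melanocortin receptors were dim as well. Zebrafish mc2r, the receptor for adrenocorticotropic hormone, had a signal of 3.1 under the melanophore title against 16.0 under the xanthophore title. The receptors mc3r and mc4r, known in mammals for energy balance, had signals of 2.2 against 5.1 and of 3.5 against 4.5. The paired genes mc5ra and mc5rb had 21.1 against 27.1 and 1.0 against 3.8. All 6 receptor probe sets were under the median on both arrays. Of all transcript probe sets, 45.8% had a brighter signal under the median of its array. All 6 were brighter under the xanthophore title, as were 52.8% of the dim probe sets on the array. The unfloored log2 ratios of mc2r and mc5rb, -2.37 and -1.93, were larger than the SD of 1.42 between dim probe sets of a gene. Those of the other 4 were not. Values past 1 SD are common among dim probe sets, and the 2 of the melatonin receptor gene mtnr1ba gave 1.78 and -3.29. No difference is therefore read from these receptors. With ribosomal protein genes set equal, 3 of the 6 (mc1r, mc4r and mc5ra) were brighter under the melanophore title instead. Signals of different probe sets do not rank the receptors by transcript level, since each set binds with its own efficiency.

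The remaining pathway genes come from lists of 134 genes, not counting asip2b and mc1r. A probe set was named for 51 of these, and 23 of the 51 were measured. The share that was not measured was 54.9%, beside 37.4% of all named genes. Among the 23, 5 were 2-fold or more brighter under the melanophore title and 3 under the xanthophore title. Over all 5501 measured genes the same counts came to 15.5% and 4.09%. The median log2 ratio of the 23 was 0.30, beside 0.36 for all measured genes. The split followed the scaling, with 3 against 4 genes when the spike-ins were set equal and 9 against 3 when ribosomal protein genes were. With the spike-ins set equal, 6.59% and 8.25% of all measured genes passed the same fold. For the ribosomal scaling the shares were 41.7% and 2.36%.

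Among ligands and their processing, the antagonists asip1 and agrp and the precursor pomcb are not analysed here for want of a named probe set. The precursor pomca had signals of 2.2 under the melanophore title and 3.0 under the xanthophore title and was not measured. The processing chaperone scg5 (14.1 against 35.6) and the peptidase prcp, which inactivates α-MSH in mammals (38.2 against 15.0), were dim too. Carboxypeptidase E, cpe, which trims peptide precursors, was the 1 measured gene of this list. Its signal was 114.5 under the melanophore title, against 588.9 under the xanthophore title, a ratio of 5.14-fold towards the xanthophore title, opposite in direction to asip2b.

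Of 3 measured partners of the receptor, 1 reached 2-fold, beside 15.5% of all measured genes towards the melanophore title. Nothing is read from a count of 3 genes. Attractin, atrn, which in mice is needed for agouti to act on Mc1r, had 280.2 under the melanophore title against 123.6 under the xanthophore title, 2.27-fold, and 1.74-fold with spike-ins set equal. The ubiquitin ligase mgrn1a, whose mouse counterpart acts in the same coat colour pathway, had 329.2 against 267.2. The arrestin arrb2b, of the family that turns off G protein receptors, had 587.2 against 632.1. The kinase gene grk6 and the arrestin arrb2a were dim on both arrays. Melanin-concentrating hormone opposes α-MSH in fish skin. Of its listed genes, pmchl (3.8 against 4.0) and the receptors mchr1a, mchr1b and mchr2b were all dim, with no signal above 22.6. Among all named genes 37.4% were dim. The hormone gene pmch and the receptor mchr2a had no named probe set.

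In the step after the receptor, no probe set was named for the stimulatory G protein gene gnas or for any of the listed adenylyl cyclases. The inhibitory G protein gene gnai2a, whose product lowers cyclic AMP, had 766.8 under the melanophore title against 178.7 under the xanthophore title, 4.29-fold. Its paralogue gnai2b had 87.2 against 90.7, and gnai1 had 3691.0 against 1889.3, 1.95-fold. The phosphodiesterase pde4ba, which breaks down cyclic AMP, had 2299.3 against 1858.8, and its second probe set 457.0 against 287.7. Of the 3 measured inhibitory G protein genes, 1 thus passed 2-fold. Over all measured genes 15.5% did so towards the melanophore title, and nothing is read from a count of 3 genes.

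Protein kinase A and its nuclear targets were the best covered step, with 10 measured of 24 listed genes. The modulator cremb, a transcription factor of the CREB family, had 700.3 under the melanophore title against 131.4 under the xanthophore title, 5.33-fold. The coactivator crebbpb had 1246.0 against 530.0, 2.35-fold, and 1.80-fold with spike-ins set equal, while its second probe set was dim at 22.8 against 26.8. The regulatory subunit prkar2aa had 1368.0 against 477.3, 2.87-fold, at its brightest probe set. Its other probe sets gave 1.34-fold and 1.69-fold, so the 2-fold call rests on 1 of 3. The kinase inhibitor pkib ran the other way, with 93.8 against 290.4, 3.10-fold towards the xanthophore title. Of the other 6 measured genes 5 stayed under 2-fold, among them prkar1aa (3702.3 against 1976.9), atf1 (711.6 against 507.8) and crebbpa (218.0 against 303.8). The remaining one, prkar1ab, has only a bound (71.0 against 23.5, at least 1.63-fold), and without a floor it was past 2-fold. The catalytic subunit genes prkacba and prkacbb were dim on both arrays.

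Of 19 pigment genes listed here as melanocortin-responsive, a label not tested here, 4 had a named probe set and 3 of these were measured. The melanin enzyme dct had 50.1 under the melanophore title against 590.1 under the xanthophore title, opposite to asip2b. The regulator mitfa had 358.1 against 243.2, and tyrosinase, tyr, had 48.4 against 39.2, near the medians. Other receptors by which fish pigment cells receive nerve and hormone signals gave 2 measured genes of 25 listed. The adrenergic receptor adra2b, of the class that gathers pigment granules, had 324.4 against 550.1 at its brighter probe set and 285.2 against 423.2 at the other. The endothelin receptor ednrba had 88.9 against 84.9. Neither reached 2-fold, and all melatonin receptor probe sets were dim, as were 45.8% of all transcript probe sets.

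**Figure D3:**
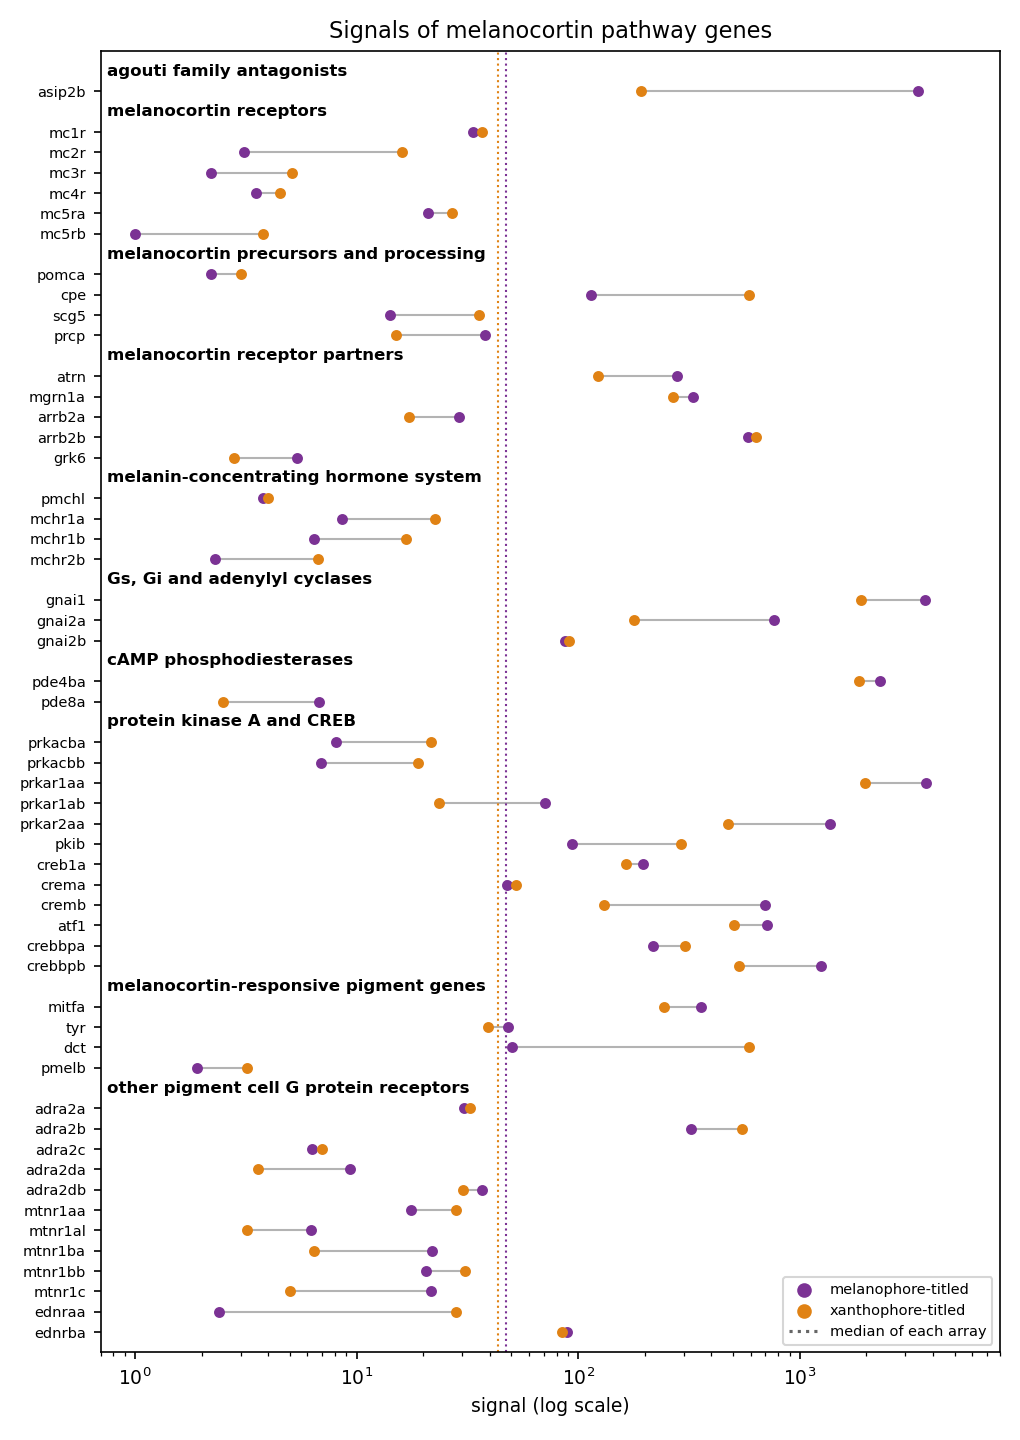
Signals (log axis) of the pathway genes with a named probe set, 1 row per gene at its brightest probe set, purple for the array titled melanophores and orange for the array titled xanthophores, with each array's median dotted. The antagonist asip2b has the widest gap among genes above both medians, and all 6 melanocortin receptors lie left of the dotted lines.

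Markers of more than 1 cell type moved with asip2b. Over all measured genes, 15.5% were 2-fold or more brighter under the melanophore title and 4.09% under the xanthophore title. Of 8 measured xanthophore genes, 6 were 2-fold or more brighter under the melanophore title, with summed signals of 12124 under the melanophore title and 5381 under the xanthophore title. They include gch2, the first enzyme of pteridine synthesis (803.9 against 140.5), and the receptor gene csf1ra (118.6 against 1.9), which has only a bound of at least 2.73-fold. That bound was 1.92-fold when bright probe sets had equal medians and 1.27-fold when the 65th percentile served as the floor. The brightest gene of the list, slc2a15b, ran the other way without reaching 2-fold, with 3444.2 under the melanophore title against 4348.7. It supplies most of the list's sum under the xanthophore title. Of 6 measured endothelial genes, 5 were 2-fold or more brighter under the melanophore title, with summed signals of 4033 against 931. In both lists some genes lay under the median of the array titled xanthophores, such as pax7a (86.7 against 23.4) and tie1 (60.2 against 27.6). Keratinocyte genes had 3 of 10 measured members 2-fold brighter under the melanophore title and none under the other, with sums of 24163 and 20011. Leukocyte genes had 2 of 5 under the melanophore title and 1 under the other, with sums of 774 and 561. Connective tissue and bone genes ran in the direction of dct and cpe: 12 of 12 measured were 2-fold brighter under the xanthophore title, with sums of 5621 under the melanophore title and 22881 under the xanthophore title. Erythrocyte genes ran the same way, with 2 of 2 measured and sums of 135 against 1230, while 4 of the 6 named were dim. Most of the sum under the xanthophore title came from hbaa1 (24.9 against 956.5), which has only a bound. Of the melanophore genes 3 were measured, and 1 of them, dct, passed 2-fold. Iridophore genes had 0 of 3 measured past 2-fold, and Schwann cell and neuron genes 1 of 4, brighter under the melanophore title. The part of these cell types in the signal of asip2b was not tested. Which of the contradicting labels is right for each array was not tested with these markers either, so a title is not read as the cell type.

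The order of genes in the RefSeq annotation of assembly GRCz12tu was used to see whether genes beside asip2b shared its pattern; this look was chosen after the values of asip2b were known. Within 10 protein-coding genes on either side, 5 had a named probe set. One of them, wu:fc46h12, a gene known only by a clone name, lies 5 protein-coding genes from asip2b. Its signal was 7226.2 under the melanophore title, against 249.6 under the xanthophore title, 29.0-fold and the 3rd highest ratio of the compared genes. Of the others, eif4a2, a translation factor, had 1608.4 against 1081.9, and ccdc39, a gene of motile cilia, had 94.7 against 58.0. Neither reached 2-fold. The gene zgc:153115 and the kinase gene ripk2 were dim, so they have no ratio to set beside that of asip2b. Towards the melanophore title, 15.5% of measured genes passed 2-fold, and the share past 4-fold was 3.72% in the compared set. With so few measured neighbours, nothing is read from the place of wu:fc46h12 near asip2b. Beside mc1r, 4 genes had a named probe set, tcf25, pdcd5, cyba and cd151l. All 4 were measured, unlike mc1r, and none reached 2-fold: cyba had 106.1 under the melanophore title against 88.3 under the xanthophore title, and cd151l, with the widest gap, 118.3 against 61.7. Of all named genes 37.4% were dim like mc1r. Of all measured genes 15.5% passed 2-fold towards the melanophore title and 4.09% towards the other, so nothing is read from these 4 genes.

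The ratio of asip2b was recomputed under 12 other settings of scaling, floor and probe set choice. The settings of floor and probe set choice could not alter it, because asip2b has 1 probe set and both signals lay above every floor. Scaling an array by a constant shifts all genes alike, so such a setting says little about the rank. The ratio ran from 12.4-fold to 25.02-fold and stood 6th or 7th among compared genes in each setting.

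**Figure D4:**
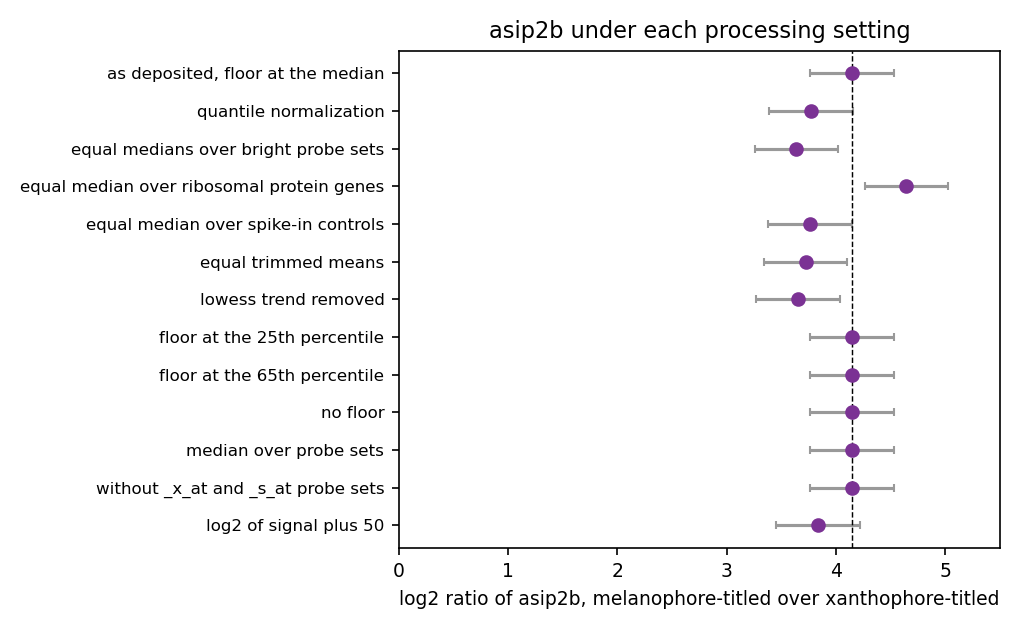
The log2 ratio of asip2b, the melanophore title over the xanthophore title, under the deposited scaling (top row, dashed line at 4.15) and 12 alternatives; bars are ± 0.38, the SD between probe sets of a gene, which is technical. The lowest value is 3.64 when bright probe sets have equal medians and the highest is 4.65 with ribosomal protein genes set equal.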

How the data were processed

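Total RNA of 2 preparations was measured on 2 arrays, and samples were grouped by title. The authors deposited MAS 5.0 signal intensity on a linear scale (MAS5 per the submitters' processing notes; scaling target not given in the sources used here). Of 15617 probe sets 115 are controls. Names came from the platform annotation, with symbols updated by gene ID (1 changed): 10795 had 1 symbol, 135 several and 4572 none. A gene took its brightest probe set. An array's median served as a floor for dimmer signals, so that log2 ratios with 1 floored signal are bounds. A gene was measured when its brighter signal reached its array's median, and differences were counted at 2-fold. The number of arrays limits the precision, and no test between groups was possible. The calculation was tested on simulated data. Members and lists were chosen with earlier results of these data known. Named were both genes, every ligand and receptor, list members past 2-fold and up to 4 others a list. The 5 likest genes and 5 markers were named too. The 1.2-fold brightness windows, cax1, the flanking genes and dim genes of other lists were added after their values were seen. The markers slc2a15b, pax7a, tie1 and hbaa1 were not among the 5 planned. Python 3.11.15, numpy 2.4.6 and pandas 2.3.3 were used. No sequence table was used here.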

Additional observations from a re-analysis of the deposited data

How the results depend on the processing

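The direction of asip2b was the same under all 12 alternatives, though those of floor and probe set choice could not alter its ratio. Its log2 ratio moved by more than the probe set SD of 0.38 in 4 of them: 3.64 with bright probe sets at equal medians, 3.65 with the lowess trend removed, 3.72 with equal trimmed means and 4.65 with ribosomal protein genes set equal. The unfloored log2 ratio of mc1r, printed because no floored ratio exists, ran from -0.65 (bright medians set equal) to 0.36 (ribosomal protein genes set equal) over 7 alternatives, within the SD of 1.42 between dim probe sets. Of the other pathway genes, 5 were 2-fold brighter under the melanophore title; this was 3 with quantile normalization, lowess, spike-ins, trimmed means or bright medians set equal, 9 with ribosomal protein genes set equal and 2 at 4-fold. The share of all measured genes was 15.5% as deposited and 4.88% to 6.59% under the 5 scalings that gave 3. It was 41.7% with ribosomal protein genes set equal and 2.22% at 4-fold. Under the xanthophore title 3 genes became 4 with those 5 scalings, where 7.8% to 10.7% of all measured genes passed. At 4-fold they became 2, beside a share of 1.15%. They became 5 with the floor at the 25th percentile, where 39 and not 23 genes were measured. With that floor 6.52% of all measured genes passed, beside 4.09% as deposited. Under the melanophore title the same floor gave 7 genes (14%) and no floor 6 (17.7%). The median over probe sets gave 4 there (15%), as did 50 added (10%). The 2-fold calls of atrn and crebbpb were lost under those same 5 scalings, that of atrn also with 50 added, and that of prkar2aa with the median over its probe sets. Over 236 recomputed values of single genes 96 moved by more than the probe set SD and 0 changed sign among those past 2-fold. With the spike-ins set equal, log2 ratios shifted by 0.3818, just under the SD of 0.3826. No single gene was therefore counted as moved in that setting, and the counts of moved values depend on this narrow margin. No paired analysis was possible because each group has 1 array. The dim signal of mc1r limits its ratio.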
